A study of Homo sapiens with 9 samples.

Results

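The gene set described here holds 33 genes of glycolysis and of the response to hypoxia-inducible factor (HIF), listed by symbol for what they are known to do; the list was drawn up with earlier results of these data known. All 33 were rows of the deposited table of 25540 gene symbols, and 29 of them were among the 10939 genes abundant enough to test (a mean of at least 1 TPM over all libraries; TPM, transcripts per unit of a fixed library total, corrects for transcript length). The 33 fall into 8 roles: hexokinases and the hexose phosphate isomerase, phosphofructokinases with their regulators, aldolases with triose phosphate isomerase, the later glycolytic enzymes, lactate dehydrogenases and lactate transporters, pyruvate dehydrogenase kinases, other HIF targets, and the HIF subunits themselves.

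The study measured RNA by sequencing in CAL-1, an established human cell line grown from BPDCN, the rare leukemia of plasmacytoid dendritic cell precursors. KHSRP, which encodes an RNA-binding protein that takes part in mRNA decay, was lowered by CRISPR interference, in which a catalytically dead Cas9 represses a gene's promoter. There were 9 libraries: 3 labelled NTC with a wild-type genotype (the controls), 3 labelled KHSRPi#1 and 3 labelled KHSRPi#2, both with a KHSRP knockdown genotype. What the numbers 1 and 2 stand for is not labelled; they were taken as 2 guides. The NTC label is not spelled out in the sources used here, and neither are the guide sequences, the time after knockdown or the oxygen and glucose in the culture. Whether the replicates came from separate cultures is not labelled, so a p-value here measures spread between libraries that may be purely technical.

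Glycolysis splits glucose into pyruvate in the cytoplasm and yields ATP without oxygen; lactate dehydrogenase then turns pyruvate into lactate, or pyruvate enters mitochondria through pyruvate dehydrogenase, which pyruvate dehydrogenase kinases hold back. HIF is a pair of proteins, an oxygen-regulated alpha subunit (HIF1A) and a constant partner (ARNT). When oxygen is low the alpha subunit is no longer hydroxylated and destroyed. The pair then binds DNA at core letters such as ACGTG and raises transcription of many glycolytic enzymes, glucose transporters, PDK1, VEGFA and BNIP3. The protein level of HIF1A is controlled mainly after transcription, so its mRNA is no measure of its activity.

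KHSRP itself (chr19:6413348-6424794, minus strand, hg38) stood at 237 ± 19.1 TPM (SD, n = 3) in NTC and at 35.2 ± 0.951 TPM (SD, n = 6) in the knockdown libraries, which ran from 33.7 to 36.5 TPM. The first principal component of the tested genes held 38.3% of the variance and set the 3 libraries of replicate 3, 1 in each group, apart from the other 6. Read totals are not part of the table, so only relative depth could be inferred, from the steps between small TPM values. These estimates were 1.11 to 1.83 times NTC replicate 1 in replicate 3 and 0.980 to 1.53 times in the others. They could not be checked against read counts. Between 13966 and 14462 symbols were above 0 in a library. Of 14 plasmacytoid dendritic cell markers, 12 had a mean of at least 1 TPM, with IRF8, TCL1A and CD4 among them. The defining marker IL3RA was listed at 0 in every library, as were genes that every cell uses such as EIF4A1, so a 0 in this table is reported only as listed at 0. Summed T cell markers reached at most 0.222 TPM and summed erythroid markers at most 0.164 TPM.

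Message for the later glycolytic enzymes dominated the gene set. The 33 members summed to between 12974 and 14359 TPM, or 1.30% to 1.44% of each library, and GAPDH alone averaged 4745 ± 284 TPM (SD, n = 9). TPM is scaled for transcript length, so levels can be set beside each other between genes. LDHB followed at 1926 ± 26.8, LDHA at 1453 ± 73.0, ENO1 at 1075 (977 to 1170) and PKM at 954 ± 53.6 TPM. GAPDH, LDHB and LDHA occupied ranges that did not overlap with their neighbours in this order, whereas the ranges of ENO1 and PKM overlapped. PGK1 (834 ± 15.8 TPM), ALDOA (811 ± 58.0 TPM) and TPI1 (732 ± 28.3 TPM) came next, and each overlapped the one after it among the 3. PGAM1 (380 ± 20.1 TPM) and GPI (191 ± 6.96 TPM) each stood alone.

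The committing step of the pathway was carried by 3 phosphofructokinase genes, PFKM at 100.3 ± 3.76, PFKP at 93.4 ± 4.02 and PFKL at 64.0 ± 6.45 TPM. The ranges of PFKM and PFKP overlapped, and that of PFKL (54.1 to 74.5 TPM) lay below both. HK2, the hexokinase seen here, averaged 51.7 ± 3.21 TPM, while HK1 was listed at 0 in all 9 libraries. Of the lactate transporters, SLC16A1 (MCT1, which can carry lactate both ways) averaged 102 ± 5.18 TPM and SLC16A3 (MCT4, an exporter of glycolytic cells) 23.1 ± 2.17 TPM. Among the members that are HIF targets outside the pathway BNIP3, a mitophagy receptor, was the most abundant at 44.5 ± 3.03 TPM, followed by VEGFA, the vascular growth factor, at 22.0 ± 1.44 TPM. MXI1 averaged 19.7, BNIP3L 15.7, ANKRD37 4.48 and NDRG1 2.14 TPM. The pyruvate dehydrogenase kinases were low, at 7.61 TPM for PDK1 and 2.83 TPM for PDK3, as was PFKFB4 at 1.48 TPM beside PFKFB3 at 16.2 TPM. HIF1A averaged 54.5 ± 3.15 TPM and ARNT 38.8 ± 3.74 TPM. CA9 and ADM, often used as hypoxia markers, were listed at 0 in all libraries, and ENO2, the neuronal enolase, ran from 0.0584 to 0.400 TPM; with HK1 these are the 4 members not tested.

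**Figure D1:**
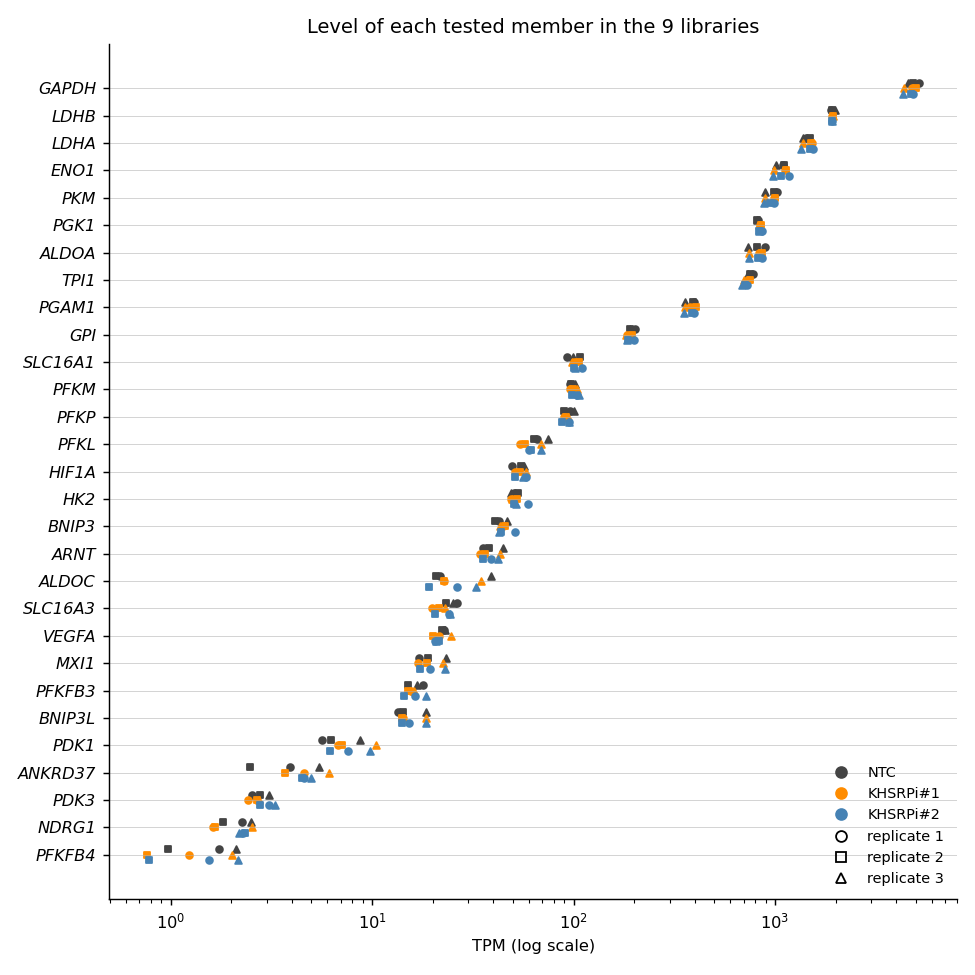
Level in TPM (log scale) of the 29 tested members, 1 line per gene ordered by mean, 1 point per library; colour marks the group and shape the replicate number. GAPDH lies between 4335 and 5174 TPM in all 9 libraries and PFKFB4 at the other end between 0.767 and 2.15 TPM, and for 28 of the 29 genes the knockdown libraries overlap the NTC range.

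KHSRP knockdown left these messages near their control levels. None of the 29 tested members passed an adjusted p of 0.05 (limma on log2(TPM + 1), Benjamini-Hochberg over all 10939 genes; two-sided) against a background of 0.0823% of all tested genes, 9 in number, and none was under an unadjusted p of 0.05, where 7.93% of all tested genes were. The members' log2 fold changes, knockdown minus NTC on the log2(TPM + 1) scale, ran from -0.16 to 0.25. Their median was -0.0029 beside 0.018 over all tested genes, and 13 of the 29 were positive. The 95% interval lay within a 25% increase of TPM + 1, or the matching decrease, for 23 of the 29. The 6 with wider intervals were PFKFB4, SLC16A3, PDK1, ALDOC, ANKRD37 and PFKL, so for these 6 the data do not exclude a change of that size. In low members such as NDRG1 and PDK3, these bounds on TPM + 1 allow a change of TPM itself larger than 25%.

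The member with the smallest p was SLC16A3. Its level was 26.3, 23.2 and 25.3 TPM in NTC replicates 1 to 3, 19.8, 21.5 and 23.0 TPM in KHSRPi#1, and 24.2, 20.6 and 24.3 TPM in KHSRPi#2. The knockdown libraries lay mostly below NTC but overlapped it, and the log2 fold change was -0.16 (95% interval -0.32 to 0.0031, limma adjusted p = 0.632). ANKRD37, an ankyrin repeat protein induced by HIF, had the largest positive value, 0.25 (95% interval -0.16 to 0.65, adjusted p = 0.775), with 2.47 to 5.48 TPM in the 3 NTC libraries and 4.74 ± 0.791 TPM (SD, n = 6) in knockdown. PFKL gave -0.14 (adjusted p = 0.730) and TPI1 -0.07 (adjusted p = 0.718). These 4 are the members with the smallest p.

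PGK1, the kinase that makes the first ATP of the pathway, was the only member whose 6 knockdown libraries all lay above all 3 NTC libraries, an arrangement without overlap, in either direction, shown by 4.67% of all tested genes. Its level was 823, 818 and 818 TPM in NTC, 843, 850 and 832 TPM in KHSRPi#1, and 865, 829 and 830 TPM in KHSRPi#2. The gap was small, the log2 fold change being 0.04 (95% interval -0.03 to 0.11, limma adjusted p = 0.807). No member had all knockdown libraries below NTC.

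Each guide taken alone gave the same count. Against NTC, KHSRPi#1 called 0 of 29 members (0.0548% of all tested genes) with SLC16A3 alone under an unadjusted p of 0.05, and KHSRPi#2 called 0 of 29 (0.0548%) with none under an unadjusted p of 0.05. The 2 guides share the NTC libraries. Between the guides, 0 of 29 members and 0% of all tested genes were called by limma, while 0 members and 1.05% of all tested genes were under an unadjusted p of 0.05. The guide differences (KHSRPi#2 minus KHSRPi#1, log2) ran from -0.07 for VEGFA to 0.17 for NDRG1.

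With a term for the 3 libraries of replicate 3 in the fit, the count of members stayed at 0 of 29, while the share called among all tested genes went from 0.0823% to 1.76%. At an unadjusted p of 0.05 that fit held 4 members, SLC16A3, PDK1, TPI1 and PFKL, or 13.8% of the 29 beside 17.5% of all tested genes. The smallest adjusted p was 0.114, for PFKL, and the interval lay within those 25% bounds for 26 of the 29 members, with PFKFB4, PDK1 and ANKRD37 outside.

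**Figure D2:**
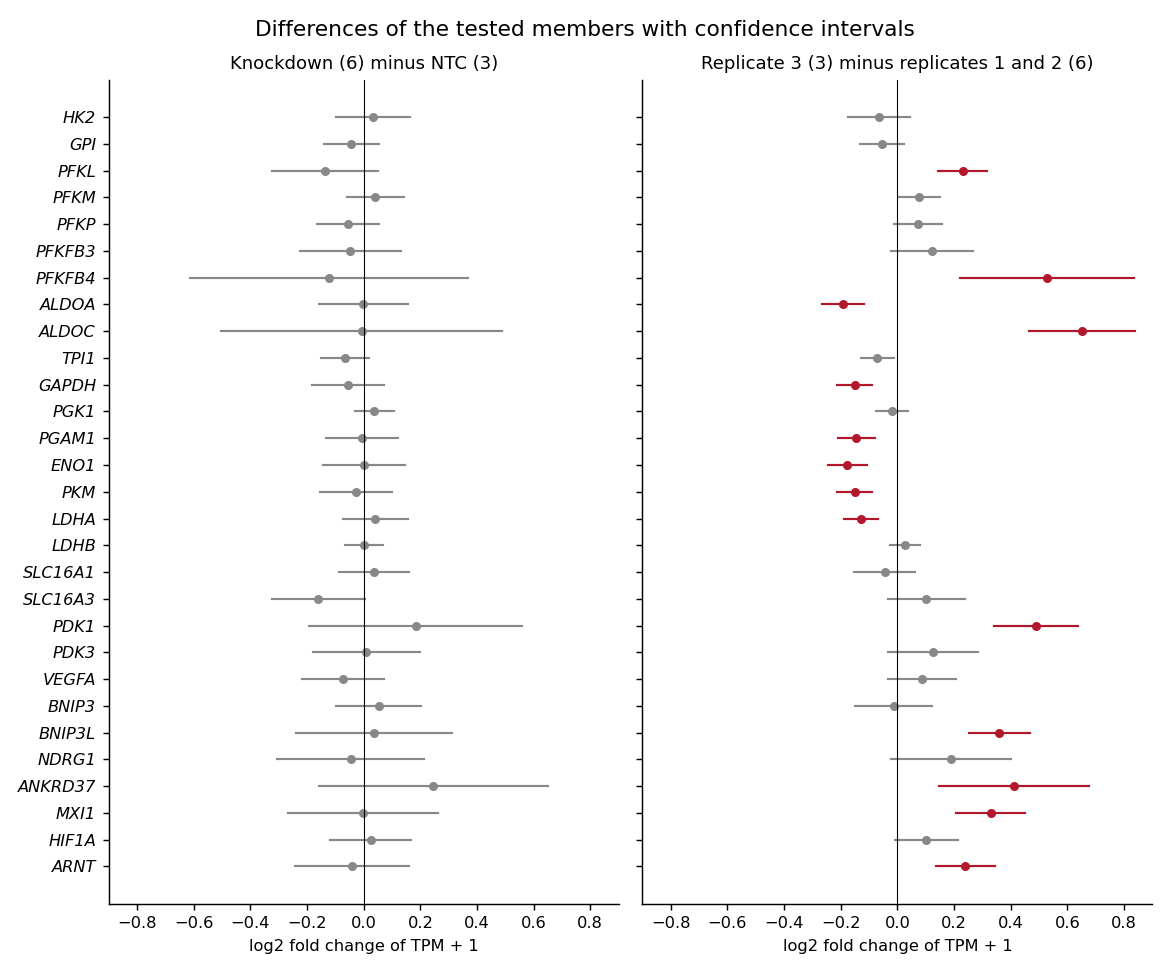
Log2 fold change of TPM + 1 with its 95% interval for the 29 tested members in role order, knockdown minus NTC on the left and replicate 3 minus replicates 1 and 2 on the right; red marks an adjusted p under 0.05. No member is red on the left, where all points lie between -0.16 and 0.25; on the right 8 members are red above 0 and 6 below.

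More members were called between replicate 3 and the other replicates than between knockdown and control. The knockdown comparison called 0 of 29 in the fit without covariates and in the fit with the replicate 3 term. In a fit with the group as covariate, 14 of 29 members (48.3%) differed by limma at an adjusted p under 0.05, of which 8 were higher and 6 lower in replicate 3. The background was wide: 30.3% of all tested genes were called, 18.7% higher and 11.6% lower, that is 2045 and 1269 genes. That split depended on scaling, with 1792 higher and 1945 lower after median-ratio rescaling and 1767 and 1896 after quantile normalization. The comparison was chosen because these libraries stood apart over all genes, so the members' count is to be read against that share. The median log2 difference of the members was 0.08 beside 0.028 over all tested genes. A single batch label covers all 9 libraries, and no label says in what replicate 3 differed.

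The same 14 members were those whose replicate 3 libraries did not overlap the other 6: 8 lay wholly above (16.5% of all tested genes did) and 6 wholly below (11% of all tested genes). A test of whether the replicate 3 difference itself differed between knockdown and NTC, added after the data were seen, called 0 of 29 members and 0 of 10939 genes (limma), with 1 member, BNIP3, and 243 genes under an unadjusted p of 0.05.

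The higher members included minor isoenzymes and regulators, and the lower ones were abundant enzymes. The aldolases showed both directions in 1 step. ALDOC, the brain-type aldolase, measured 21.8 and 20.7 TPM in NTC replicates 1 and 2 and 39.0 TPM in NTC replicate 3. It measured 22.9, 22.8 and 34.8 TPM in KHSRPi#1 replicates 1 to 3, and 26.4, 19.2 and 32.9 TPM in KHSRPi#2. The 3 replicate 3 libraries were the highest 3, at 35.6 ± 3.11 TPM (SD, n = 3) against 22.3 ± 2.44 TPM (SD, n = 6), a log2 difference of 0.65 (SE 0.09, limma adjusted p = 0.000283). ALDOA, the main aldolase, measured 889, 810 and 738 TPM in NTC replicates 1 to 3, 832, 864 and 746 TPM in KHSRPi#1, and 863, 820 and 739 TPM in KHSRPi#2. Its 3 replicate 3 libraries were the lowest 3 and close to each other, 741 ± 4.37 against 846 ± 30.5 TPM, a log2 difference of -0.19 (SE 0.03, adjusted p = 0.00164). ALDOC made up 4.26% to 5.02% of the summed aldolase TPM in replicate 3 and 2.29% to 2.97% in the others. TPI1, which interconverts the aldolase products, was not called (log2 difference -0.07, adjusted p = 0.0626).

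Among the phosphofructokinase genes and their regulators, 2 of 5 were higher and none lower, beside 18.7% higher and 11.6% lower of all tested genes. PFKL, the liver-type subunit, measured 66.3, 63.4 and 74.5 TPM in NTC replicates 1 to 3, 54.1, 57.4 and 69.3 TPM in KHSRPi#1, and 60.2, 61.5 and 69.3 TPM in KHSRPi#2. Replicate 3 was highest within each group, with a log2 difference of 0.23 (SE 0.04, limma adjusted p = 0.00143). PFKM (0.08, adjusted p = 0.103) and PFKP (0.07, adjusted p = 0.178), the other subunit genes, were not called. PFKFB4, a bifunctional enzyme that sets the level of the phosphofructokinase activator fructose 2,6-bisphosphate, measured 1.75, 0.973 and 2.11 TPM in NTC, 1.23, 0.767 and 2.01 TPM in KHSRPi#1, and 1.55, 0.784 and 2.15 TPM in KHSRPi#2. The log2 difference was 0.53 (SE 0.14, adjusted p = 0.0145), but replicate 1 also lay above replicate 2 in each group. At this low level the call was lost without KHSRPi#1 replicate 3 (adjusted p = 0.0814), without KHSRPi#2 replicate 3 (0.0710) and with no filter on low values (0.0604). PFKFB3, the related gene, was not called (0.12, adjusted p = 0.184).

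Of the 5 tested enzymes from glyceraldehyde phosphate to pyruvate, 4 were lower in replicate 3 and none higher. Among all tested genes 11.6% were lower and 18.7% higher. GAPDH, the dehydrogenase often used as a reference gene, measured 5174, 4864 and 4560.2 TPM in NTC replicates 1 to 3, 4788, 5035 and 4363 TPM in KHSRPi#1, and 4855, 4734 and 4335 TPM in KHSRPi#2. Replicate 3 averaged 4419 ± 123 TPM (SD, n = 3) against 4908 ± 165 TPM (SD, n = 6), a log2 difference of -0.15 (SE 0.03, limma adjusted p = 0.00224). ENO1, the main enolase, measured 1101, 1111 and 1006 TPM in NTC, 1115, 1135 and 983 TPM in KHSRPi#1, and 1170, 1073 and 977 TPM in KHSRPi#2. Its log2 difference was -0.18 (SE 0.03, adjusted p = 0.00158). PKM, pyruvate kinase, averaged 888 ± 8.61 TPM against 987 ± 25.9 TPM (log2 difference -0.15, adjusted p = 0.00193), and PGAM1, phosphoglycerate mutase, 355 ± 2.39 TPM against 393 ± 8.61 TPM (-0.15, adjusted p = 0.00358). In all 4 genes the replicate 3 libraries were the 3 lowest of the 9, and the spread among them was smaller than among the other 6. PGK1 differed by -0.02 (adjusted p = 0.601).

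Several of these enzymes have processed pseudogene copies, so reads shared with a copy could be split by the authors' counting in ways the table does not show. ENO1 (chr1:8861000-8879250, minus strand) also overlaps the antisense gene ENO1-AS1 (chr1:8878835-8879894, plus strand) by 416 bases. ENO1-AS1 measured 1.57, 1.60 and 1.94 TPM in NTC, 2.07, 2.55 and 2.77 TPM in KHSRPi#1, and 6.68, 4.00 and 6.03 TPM in KHSRPi#2. The labels do not state whether counting used strand, so reads of the pair cannot be told apart where they overlap.

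Of the lactate genes, LDHA alone was called. LDHA, whose product favours pyruvate to lactate, measured 1420, 1484 and 1370 TPM in NTC replicates 1 to 3, 1529, 1505 and 1384 TPM in KHSRPi#1, and 1538, 1499 and 1347 TPM in KHSRPi#2. Replicate 3 was lowest within each group (log2 difference -0.13, SE 0.03, limma adjusted p = 0.00481), though NTC replicate 1 stood close to it, and without KHSRPi#2 replicate 3 the call was lost (-0.11, adjusted p = 0.0592). LDHB, the subunit with the more oxidative isoenzyme, was not called (0.03, adjusted p = 0.460), and its share of the summed LDHA and LDHB TPM was 58.4% to 59.1% in replicate 3 and 55.6% to 57.1% in the others. SLC16A1 and SLC16A3 were not called (-0.05 and 0.10, adjusted p = 0.516 and 0.233). HK2 and GPI, at the head of the pathway, were not called either (-0.07 and -0.06, adjusted p = 0.355 and 0.259).

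PDK1, the HIF-induced kinase that shuts pyruvate dehydrogenase, was higher in replicate 3. It measured 5.67, 6.25 and 8.74 TPM in NTC replicates 1 to 3, 6.78, 7.07 and 10.4 TPM in KHSRPi#1, and 7.57, 6.19 and 9.76 TPM in KHSRPi#2. Replicate 3 averaged 9.64 ± 0.852 TPM (SD, n = 3) against 6.59 ± 0.685 TPM (SD, n = 6), a log2 difference of 0.49 (SE 0.07, limma adjusted p = 0.000402). PDK3 was not called (0.12, adjusted p = 0.221).

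Among the other HIF targets 3 of 6 tested members were higher and none lower, beside 18.7% higher and 11.6% lower of all tested genes. That role leaves out the glycolytic enzymes, many of which HIF also raises and some of which were lower in replicate 3. BNIP3L, a mitophagy receptor also known as NIX, measured 13.5, 14.3 and 18.5 TPM in NTC, 14.2, 14.2 and 18.6 TPM in KHSRPi#1, and 15.3, 14.1 and 18.6 TPM in KHSRPi#2. Its 3 replicate 3 values were nearly equal, at 18.6 ± 0.048 TPM (SD, n = 3), and the log2 difference was 0.36 (SE 0.05, limma adjusted p = 0.000333). MXI1, a MAX-binding antagonist of MYC, averaged 22.9 ± 0.439 TPM against 18.1 ± 1.08 TPM (0.33, SE 0.06, adjusted p = 0.00122). ANKRD37 measured 3.93, 2.47 and 5.48 TPM in NTC, 4.57, 3.71 and 6.12 TPM in KHSRPi#1, and 4.58, 4.48 and 4.98 TPM in KHSRPi#2, so that KHSRPi#2 showed only a small gap. Its log2 difference was 0.41 (SE 0.12, adjusted p = 0.0239), and the call was lost without NTC replicate 3 (adjusted p = 0.187), without KHSRPi#1 replicate 3 (0.116), with no filter (0.0995) and after quantile normalization (0.0772). BNIP3, VEGFA and NDRG1 were not called (-0.01, 0.09 and 0.19, adjusted p = 0.894, 0.256 and 0.166).

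Of the HIF subunits, ARNT was higher and HIF1A was not called. ARNT measured 35.6, 38.2 and 44.9 TPM in NTC, 34.3, 36.5 and 43.0 TPM in KHSRPi#1, and 39.1, 35.5 and 42.1 TPM in KHSRPi#2, a log2 difference of 0.24 (SE 0.05, limma adjusted p = 0.00309). HIF1A differed by 0.10 (adjusted p = 0.146), at 57.1 ± 0.816 TPM in replicate 3 against 53.2 ± 3.08 TPM.

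**Figure D3:**
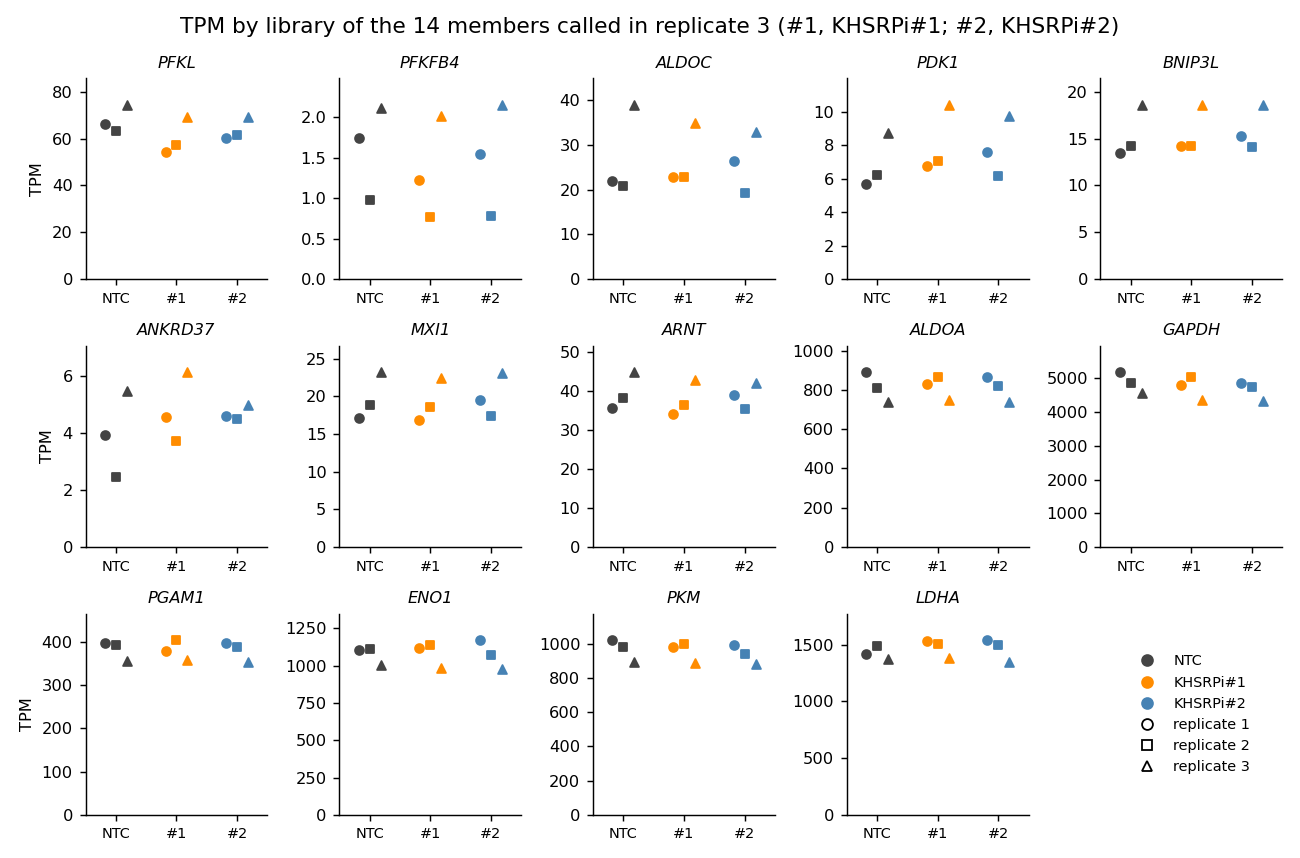
TPM in each of the 9 libraries for the 14 members called between replicate 3 and replicates 1 and 2, 1 panel per gene with the y axis from 0; colour marks the group and triangles mark replicate 3. The first 8 panels, from PFKL to ARNT, have every triangle above all circles and squares, and the last 6, from ALDOA to LDHA, have every triangle below them.

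The 2 directions divided the members by abundance. A division at a mean of 300 TPM was chosen after the values were seen. All 6 lower members were among the 9 at or above 300 TPM, where the other 3 were not called, and all 8 higher members were among the 20 below it, where the other 12 were not called. Among all tested genes the corresponding shares were 25.7% lower and 13.7% higher of 460 genes at or above 300 TPM, and 18.9% higher and 11.0% lower of 10479 genes below it. The lean of all genes depended on scaling, an alternative added after the data were seen: at or above 300 TPM it was 29.8% lower and 7.83% higher after median-ratio rescaling but 20.9% and 20.4% after quantile normalization, and below 300 TPM 17.3% and 17.2% were lower and 16.8% and 16.0% higher. The members kept their division, with 7 and 6 lower and none higher at or above 300 TPM, and 8 and 8 higher and none lower below it. Whether members differ from other genes of their level was not tested. Summed, the members made up 12974 to 13392 TPM in replicate 3 and 13750 to 14359 TPM in the other libraries.

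**Figure D4:**
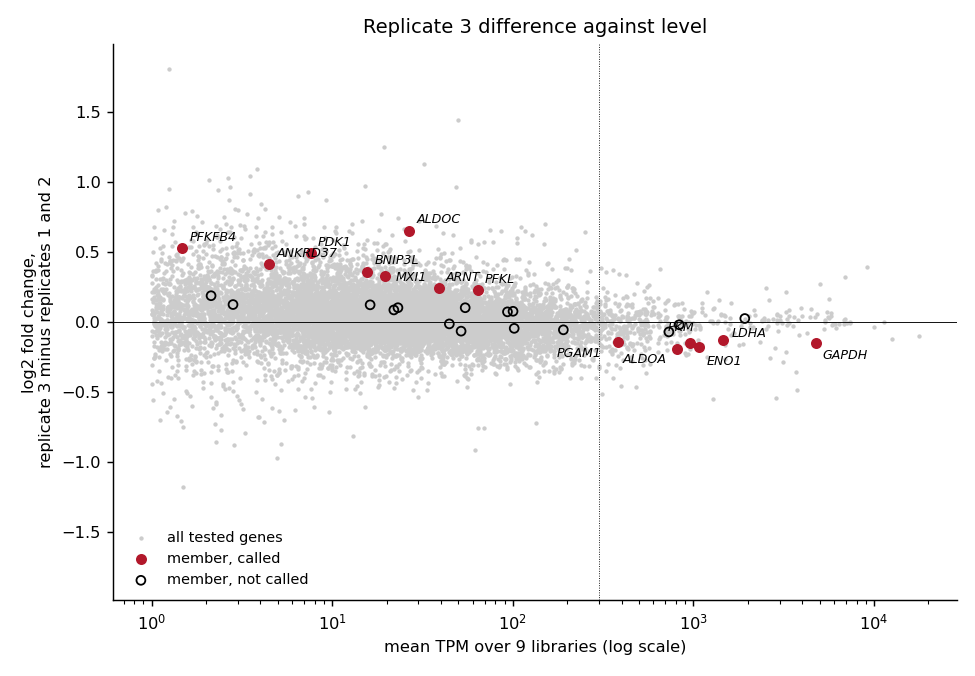
Log2 difference, replicate 3 minus replicates 1 and 2, against the mean TPM over 9 libraries (log scale) for all tested genes in grey, members called in red and members not called as open circles; the dotted line is at 300 TPM. Every red point left of the line is above 0, from PFKL at 0.23 to ALDOC at 0.65, and every red point right of it is below 0, from LDHA at -0.13 to ALDOA at -0.19.

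Genes outside the set were read in 5 lists drawn up by function, against the 30.3% of all tested genes called in replicate 3 (18.7% higher, 11.6% lower). Of 20 other known HIF targets tested (28 listed), 7 (35.0%) were higher and none lower, a share called near that of all genes, with 19 of 20 positive and a median log2 difference of 0.15 beside 0.028 over all tested genes. DDIT4, an inhibitor of mTORC1 signalling, measured 54.6, 51.8 and 81.1 TPM in NTC replicates 1 to 3, 46.3, 50.4 and 75.2 TPM in KHSRPi#1, and 48.0, 49.0 and 70.5 TPM in KHSRPi#2 (log2 difference 0.59, SE 0.04, limma adjusted p = 8.64e-06). KDM4C, a histone demethylase, P4HA1, a collagen prolyl hydroxylase subunit, and BHLHE40, a transcriptional repressor, were higher by 0.31, 0.17 and 0.28 (adjusted p = 0.00465, 0.00561 and 0.0130). The 3 others called were ZNF395, CITED2 and PPFIA4.

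The glucose transporters did not move as 1 group. SLC2A1 (GLUT1), a HIF target and the most widely expressed transporter, averaged 68.1 ± 0.142 TPM (SD, n = 3) in replicate 3 against 84.2 ± 4.26 TPM (SD, n = 6) (log2 difference -0.30, SE 0.05, limma adjusted p = 0.000607). SLC2A3 (GLUT3), also a HIF target, averaged 13.3 ± 0.911 against 10.8 ± 0.817 TPM (0.29, SE 0.06, adjusted p = 0.00328). Of the 8 tested genes of that list (20 listed), 62.5% were called, 2 higher (SLC2A3 and ENO3) and 3 lower (SLC2A1, SLC2A6 and ADPGK). The remaining lists held fewer calls than the 30.3% of all tested genes. Among 12 tested genes of pyruvate entry into mitochondria 2 (16.7%) were called, both higher, the pyruvate dehydrogenase phosphatases PDP1 and PDP2 (0.26 and 0.19), which reverse what the kinases do. Among 14 of the pentose phosphate and glycogen pathways 2 (14.3%) were called, both higher (TKT, 0.12, and PGLS, 0.13). Of 12 genes of oxygen sensing and HIF partners 2 (16.7%) were called: 1 was higher, MYC (0.25, adjusted p = 0.000418), and 1 lower, the coactivator CREBBP (-0.20, adjusted p = 0.0337).

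In knockdown against NTC these 5 lists held no called gene (limma), with 2 of 20 other HIF targets, 1 of 8 in the glucose list, 1 of 12 in pyruvate entry, 1 of 14 in the pentose phosphate list and 0 of 12 in oxygen sensing under an unadjusted p of 0.05, beside 7.93% of all tested genes. With the replicate 3 term, RPE, the epimerase of the pentose phosphate pathway, was the 1 gene called, at a log2 fold change of 0.23 (adjusted p = 0.0485, SE 0.05) that was not called without the term (adjusted p = 0.394).

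Markers of cell state moved with replicate 3 too. Of 12 tested plasmacytoid dendritic cell markers 83.3% were called, beside 30.3% of all tested genes (18.7% higher, 11.6% lower). Of these markers 2 were higher (IRF8 and CD4) and 8 lower, with GZMB and NRP1 at log2 differences of -0.75 and -0.45. The list's summed level was 4266 to 4430 TPM in replicate 3 and 3770 to 4300 TPM in the others. The summed monocyte markers were 36.9 to 42.0 TPM against 59.4 to 91.0 TPM, nearly all of it LYZ (38.4 ± 2.82 against 73.9 ± 11.0 TPM); FCGR3A was listed at 0 in every library and CD14 was at most 0.0881 TPM. Summed B cell markers were 4.90 to 5.32 TPM against 3.50 to 4.51 TPM, and summed epithelial or stromal markers 2.54 to 2.82 TPM against 1.79 to 2.82 TPM. Whether plasmacytoid dendritic cell markers were called with knockdown depended on the replicate 3 term. Against NTC 0 of 12 were called (limma), but 10 were positive and 5 were under an unadjusted p of 0.05, beside 7.93% of all tested genes. With the replicate 3 term 4 of 12 (33.3%) were called, all higher, beside 1.76% of all tested genes. In bulk RNA, fewer cells of a type and less RNA per cell cannot be told apart, and the part of these shifts in the members' differences was not tested.

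Since members differed in both directions in replicate 3, their promoters were searched for the HIF core letters ACGTG on both strands (CACGT when read on the other strand); the palindrome CACGTG matches both and is also the letters of an E-box, which MYC and its relatives bind. Windows ran from 250 bases before to 50 after each RefSeq start site (GRCh38.p14). The core was held by 21.4% of all 35116 windows, and of 58 windows of the 29 members with an entry 39.7% did. VEGFA, BNIP3L, NDRG1 and SLC16A1 had no entry. A core was found in 7 of the called members, 4 of 7 higher and 3 of 6 lower members with an entry. It was also found in 10 of 12 tested members with an entry that were not called (83.3%). Among all tested genes the share was 33.6%, but only 8723 of 10939 had an entry. The stretches below show the core nearest a start site in those 7, 5′ to 3′ on the gene's strand with the core in capitals, so that the higher and lower members can be set side by side.
ALDOC: ccccggaggagtCACGTagctctgcgaca
PDK1: cgcCACGTccctCACGTaccactcggcag
ANKRD37: cagtgtttgtgtACGTGcggccgtggcgg
MXI1: gtggccaccagtCACGTaagcagagagcc
ALDOA: tggcagggaggcCACGTGatccgagtcccc
GAPDH: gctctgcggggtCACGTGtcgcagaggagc
LDHA: cgtgggttcccgCACGTccgccggccccc

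The first 4 belong to members higher in replicate 3: ALDOC at chr17:28576907-28576935 (minus strand), PDK1 at chr2:172556070-172556098, ANKRD37 at chr4:185396686-185396714 and MXI1 at chr10:110210106-110210134, the last 3 on the plus strand. The other 3 belong to lower members, all on the plus strand: ALDOA at chr16:30064373-30064402, GAPDH at chr12:6535171-6535200 and LDHA at chr11:18394478-18394506. The core began 28 bases before the start site in ALDOC, 8 in PDK1, 143 in ANKRD37, 113 in MXI1, 112 in ALDOA, 81 in GAPDH and 73 in LDHA. PDK1 showed a pair of cores within the stretch, and ALDOA and GAPDH the palindrome. PFKL, PFKFB4, ARNT, PGAM1, ENO1 and PKM had no ACGTG in these windows. The letters were present among higher, lower and uncalled members alike. A match is a description of the sequence, not a measured binding site.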

How the data were processed

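RNA of 9 CAL-1 libraries (3 NTC, 3 KHSRPi#1, 3 KHSRPi#2) was measured by sequencing. The deposited table gives TPM by gene symbol, scaled by the authors so that each column sums to 1000000. The genome build is hg38, per the submitters' processing notes. Aligner version, counter, annotation and strand use: not given in the sources used here. Groups and replicate numbers come from the sample titles.

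Since TPM keeps no read totals, count models were not applied, and the spread of replicates sets the precision. Genes with a mean of at least 1 TPM were tested on log2(TPM + 1) by limma (version 3.58.1, R 4.3.3; two-sided, eBayes with trend), in 1 fit of all 9 libraries without covariates for knockdown and with the group as covariate for replicate 3. A fold change on this scale understates the change of low genes. P-values were adjusted by Benjamini-Hochberg over all tested genes and called under 0.05. The fit was tested on simulated data. Alternatives were other pseudocounts (0.1, 5), filters, scalings, covariates and leaving out each library. Every member is described; fold changes are given for called members and, where none was called, for the 4 with the smallest p, and at most 4 called genes are named with values per pathway list. Members and lists were chosen with earlier results of these data known. Gene positions are from GENCODE 29, promoter sequences from RefSeq (GRCh38.p14). Depth, promoters and figures were computed in Python 3.11.15 (pandas 2.3.3, numpy 2.4.6, matplotlib 3.10.9).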

Additional observations from a re-analysis of the deposited data

How the results depend on the processing

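In all 30 alternatives of the knockdown comparison and of each guide, 0 members were called. For knockdown the count over all tested genes ran from 3 to 260 beside 9, with 192 under the replicate 3 term; it ran from 2 to 112 beside 6 for KHSRPi#1 and from 3 to 138 beside 6 for KHSRPi#2. With the replicate number as a replicate block, 0 members and 152 genes were called for knockdown, 54 for KHSRPi#1, 91 for KHSRPi#2 and 1 between the guides. The numbers were not taken to pair the libraries. After removal of group means, same-numbered pairs correlated at 0.0398 to 0.324 in replicates 1 and 2 and at 0.622 to 0.628 in replicate 3. Replicate 1 against replicate 2 of another group gave 0.238 to 0.371, no lower than the same-numbered range. The lowest pair was replicate 1 of NTC and KHSRPi#2, and 3 of 9 libraries correlated best with their own number. Each of the 18 alternatives of the replicate 3 comparison called 12 to 15 members, and leaving out 1 library gave 12 to 15. Over all genes 1802 were called without NTC replicate 3, 1970 without KHSRPi#1 replicate 3 and 1970 without KHSRPi#2 replicate 3, beside 3314; the cause was not tested, beyond each of these fits having fewer replicate 3 libraries. Of 250 values of the 14 called members under these alternatives, 242 kept direction and call, 8 lost the call (PFKFB4, ANKRD37 and LDHA) and 0 reversed. Members called only under an alternative were TPI1 (median-ratio rescaling), PFKM (quantile normalization) and HIF1A (without KHSRPi#2 replicate 1). The reads behind the values of the lowest members (PFKFB4, NDRG1, PDK3 and ANKRD37) are unknown, which limits what can be said of them.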

Other observations

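Isoenzyme shares moved with replicate 3 in some families beyond aldolase and lactate dehydrogenase. ENO3, the muscle enolase, made up 4.78% to 5.71% of the summed enolase TPM (ENO1, ENO2 and ENO3) in replicate 3 and 3.50% to 4.24% in the other 6 libraries. PDK1 made up 39.4% to 46.0% of the summed PDK1, PDK2 and PDK3 TPM against 33.9% to 38.0%, while PDK2 made up 41.9% to 46.7% against 48.4% to 51.1%. PFKFB4 made up 10.4% to 11.1% of PFKFB3 and PFKFB4 together against 4.84% to 8.93%. PFKL made up 25.63% to 26.9% of the phosphofructokinases against 22.6% to 25.60%, ranges that nearly touched. Neither PFKM nor PFKP had shares free of overlap (36.6% to 39.2% against 37.1% to 40.1%, and 35.1% to 36.5% against 35.4% to 37.5%). The SLC16A1 share of summed SLC16A1 and SLC16A3 TPM overlapped too, at 79.8% to 80.9% in replicate 3 against 78.0% to 83.6%. A share rises when the gene rises or its partners fall, and these values carry no test.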
